A study of Mus musculus with 12 samples.

Results

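The comparison described here set all 6 arrays of Socs2 null mutant liver against all 6 arrays of wildtype liver, with time as a block, and asked which genes differed between the genotypes in the same direction in resting and in regenerating liver. It used all 12 arrays of the series. Of 17097 genes tested, 5544 had a mean difference of the same sign at 0, 24 and 36 h, 3627 of them below 0 (21.2 %) and 1917 above 0 (11.2 %).

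The mice were adult C57BL/6 animals, either wildtype or Socs2 null mutants kept on that background (the genotype field spells the gene Soc2). Livers were taken at 24 h or 36 h after 2/3 hepatectomy, the removal of most of the liver mass. The 0 h livers came from age-matched mice with no operation, and no group had a sham operation. Each of the 6 groups of genotype and time held 2 arrays, and the RNA of each array was pooled from 3 animals, so n = 2 counts pools and the spread between animals is not seen. The labels limit the mutation to no tissue, so changes in the liver and changes in hormones from elsewhere cannot be told apart. In whole liver RNA, fewer cells of a type and less RNA per cell cannot be told apart either. The labels do not give the sex of the mice. The Y-linked gene Eif2s3y read 477 to 682 on every array, and its genotype difference was 0.03 ± 0.09 (log2, standard error).

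SOCS2 belongs to the suppressor of cytokine signalling family. Growth hormone binds its receptor on hepatocytes and activates JAK2 and the transcription factor STAT5, STAT5 induces Socs2, and SOCS2 protein in turn promotes the degradation of the receptor, which closes a feedback loop. In mouse liver the pulses of growth hormone that act through STAT5b also maintain the male pattern of expression, in which a set of enzymes and carriers is higher in males than in females, and growth hormone drives hepatic production of the insulin-like growth factor Igf1.

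Values are probe set intensities on a linear scale. Differences are log2(intensity + 16) of Socs2-null minus wildtype with the standard error, and adjusted p-values are from limma with Benjamini-Hochberg adjustment over all 17097 genes. The background of an array was set by the brightest of its 17 tag control probe sets, which match no mouse transcript, and read 33.0 to 45.0. On the Socs2-null arrays the median over genes was lower by a log2 difference of -0.04. A two-sided exact permutation test of genotype within each time gave p = 0.0463, where the smallest p possible is 0.00926. The genotypes did not overlap in this median at 0 h and 24 h. At 36 h they did, at 6.465 and 6.412 in Socs2-null against 6.442 and 6.440 in wildtype liver. The mean of the hybridization controls, which are added at known amounts, differed by -0.10 (exact p = 0.306) and the brightest tag control by -0.15 (exact p = 0.185). Socs2-null replicate 2 of 24 h stood apart in the neutrophil markers S100a8, at 655 against 23.0 to 152 on the other arrays, and S100a9, at 953 against 47.4 to 201. The summed level of the neutrophil markers was 420 to 636 in wildtype and 439 to 1922 in Socs2-null liver. Pearson's r of log2(intensity + 16) across the 17097 genes was 0.985 to 0.996 for arrays of the same group and 0.948 to 0.996 between groups.

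Over the 3 times, 3 genes were lower in Socs2-null liver at an adjusted p under 0.05 (0.0175 % of those tested) and none was higher (0 %). They were Socs2, Fmr1nb and Ptgfrn. By limma without adjustment, 1219 genes were lower (7.13 %) and 521 higher (3.05 %) at p under 0.05. A further 15 genes had an adjusted p between 0.05 and 0.10, of which 4 were higher. No gene passed the test of whether its genotype difference changed between the times (limma F test), where 630 had an unadjusted p under 0.05.

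Socs2 is the mutated gene, and its level checks the labels. Its brightest probe set read 116 to 546 on the 6 wildtype arrays, the highest at 0 h and the lowest at 24 h. The 6 Socs2-null arrays read 23.2 to 29.5, under the background of each array. No Socs2-null array overlapped a wildtype array, and Socs2 was at least 6.77-fold lower over the 3 times (log2 difference -2.63 ± 0.24, adjusted p = 0.00102). A second probe set also parted the genotypes at each time (-1.62 ± 0.28). The remaining 2 probe sets did not, at 0.04 ± 0.07 and 0.07 ± 0.08. The first was over background on all 12 arrays, and the second on none, so the second could not show a loss. The labels do not say which part of the gene is deleted. The adjusted p for Socs2 rose to 0.0543 when Socs2-null replicate 1 of 24 h was left out, to 0.0534 for wildtype replicate 1 of 36 h, to 0.0694 for Socs2-null replicate 2 of 36 h and to 0.229 for all arrays of 36 h.

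Moxd1 had the next largest difference among genes without overlap at any time, and its adjusted p was just over the threshold. Moxd1 encodes a monooxygenase of the dopamine beta-hydroxylase family and is a male-biased gene of mouse liver. The wildtype arrays read 348 and 156 at 0 h, then 144 and 151 at 24 h and lastly 222 and 104 at 36 h. The Socs2-null arrays read 27.8 and 20.3 at 0 h, then 86.5 and 55.5 at 24 h and lastly 23.6 and 23.1 at 36 h. The lowest wildtype array lay above the highest Socs2-null array of any time. Socs2-null liver was under background at 0 h and 36 h, at least 5.85-fold and at least 4.47-fold lower than wildtype, while both 24 h pools were above background. The difference was -2.65 ± 0.36 at 0 h, -0.93 ± 0.36 at 24 h and -2.10 ± 0.36 at 36 h, and the test of a change between times gave an adjusted p of 0.98. Over the 3 times it was -1.89 ± 0.27 (adjusted p = 0.0502). With any 1 array left out the adjusted p lay between 0.0502 and 0.285, and as the average of the differences in the group-means model it was 0.0211.

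The promoters of Moxd1 and of Steap4, the gene with the largest difference above 0 among those without overlap at any time, both hold the palindrome TTCNNNGAA, the motif that STAT5 and other STAT factors bind. The promoter of Socs3, a STAT target and like Socs2 a feedback inhibitor, is shown beside them. Whether STAT factors act on Moxd1 or Steap4 was not tested. The sequences are the 250 bases before the RefSeq start site in GRCm38.p6, 5′ to 3′ on the gene's strand, with the motif in capitals. Moxd1 lies on the plus strand at chr10:24223267-24223516 with the motif at -150, Steap4 on the plus strand at chr5:7960222-7960471 with the motif at -116, and Socs3 on the minus strand at chr11:117969367-117969616 with the motif at -154.
Moxd1: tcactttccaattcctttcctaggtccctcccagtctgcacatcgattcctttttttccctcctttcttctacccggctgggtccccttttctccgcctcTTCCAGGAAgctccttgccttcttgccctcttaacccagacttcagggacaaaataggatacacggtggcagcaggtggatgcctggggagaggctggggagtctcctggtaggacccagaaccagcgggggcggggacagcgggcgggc
Steap4: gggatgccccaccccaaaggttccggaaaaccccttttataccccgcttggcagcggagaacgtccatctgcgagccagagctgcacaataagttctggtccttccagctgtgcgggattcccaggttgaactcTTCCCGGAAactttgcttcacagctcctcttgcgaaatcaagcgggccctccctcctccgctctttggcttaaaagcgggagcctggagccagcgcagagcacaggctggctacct
Socs3: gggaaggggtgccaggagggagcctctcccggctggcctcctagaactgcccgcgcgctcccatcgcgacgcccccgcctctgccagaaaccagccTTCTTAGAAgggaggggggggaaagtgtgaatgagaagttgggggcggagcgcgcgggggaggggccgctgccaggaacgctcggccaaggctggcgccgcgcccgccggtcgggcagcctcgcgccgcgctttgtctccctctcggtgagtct
These letters were searched in windows from 250 bases before to 50 bases after the start, and the palindrome reads the same on both strands. They occurred in 8.76 % of the 13605 genes with a promoter in the table. They occurred in 29 of 240 (12.1 %) of the genes lower at each time without overlap and in 7 of 107 (6.54 %) of those higher at each time without overlap, sets that are defined below. The E-box CACGTG, searched for comparison on both strands, occurred in 10.2 %, 10.4 % and 10.3 % of the same sets. The letters are not in these windows of Ptgfrn, Fmr1nb, Fitm1, Slco1a4 and Nudt7. The palindrome is in those of Apcs, Itih4, Prodh and Ctsg, which are named below and whose sequences are not shown. A match is a description of the letters and does not show binding.

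Ptgfrn encodes an immunoglobulin-domain membrane protein that associates with tetraspanins. It fell at each time by nearly the same amount, and no Socs2-null array overlapped a wildtype array of the same time. Wildtype liver read 202 and 234 at 0 h, then 83.7 and 91.9 at 24 h and lastly 68.8 and 93.6 at 36 h. Socs2-null liver read 128 and 150 at 0 h, then 47.8 and 54.1 at 24 h and lastly 56.4 and 42.5 at 36 h. The differences were -0.59, -0.63 and -0.57, each ± 0.16, and -0.60 ± 0.08 over the times (adjusted p = 0.0333, but 0.0835 as the average of the differences in the group-means model).

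Fmr1nb, an X-linked gene known mainly from testis, fell at each time as well. Wildtype liver read 119 and 104 at 0 h, then 87.8 and 90.1 at 24 h and lastly 75.7 and 72.5 at 36 h, against 72.1 and 75.6, 49.6 and 53.9, and 58.5 and 54.4 in Socs2-null liver. Each pair of arrays was lower than the wildtype pair of its time, by -0.50, -0.63 and -0.32 in that order, and by -0.48 ± 0.07 over the times (adjusted p = 0.0333). All readings of Ptgfrn and Fmr1nb lay over the background of their array, but they were dim. The median over genes was lower on the Socs2-null arrays of 0 h and 24 h. With each array centred on its median, Socs2 was the only gene past the threshold. Each of these 2 calls was lost when any of 10 arrays was left out in turn, with adjusted p from 0.0543 to 0.182 in those fits for both genes. Both kept their call when Socs2-null replicate 1 of 36 h was left out. Ptgfrn also kept it when wildtype replicate 1 of 36 h was left out, and Fmr1nb when wildtype replicate 2 of that time was. On all probe sets in place of 1 probe set a gene, limma called none at an adjusted p under 0.05, with 4392 of 45037 at an unadjusted p under 0.05.

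**Figure D1:**
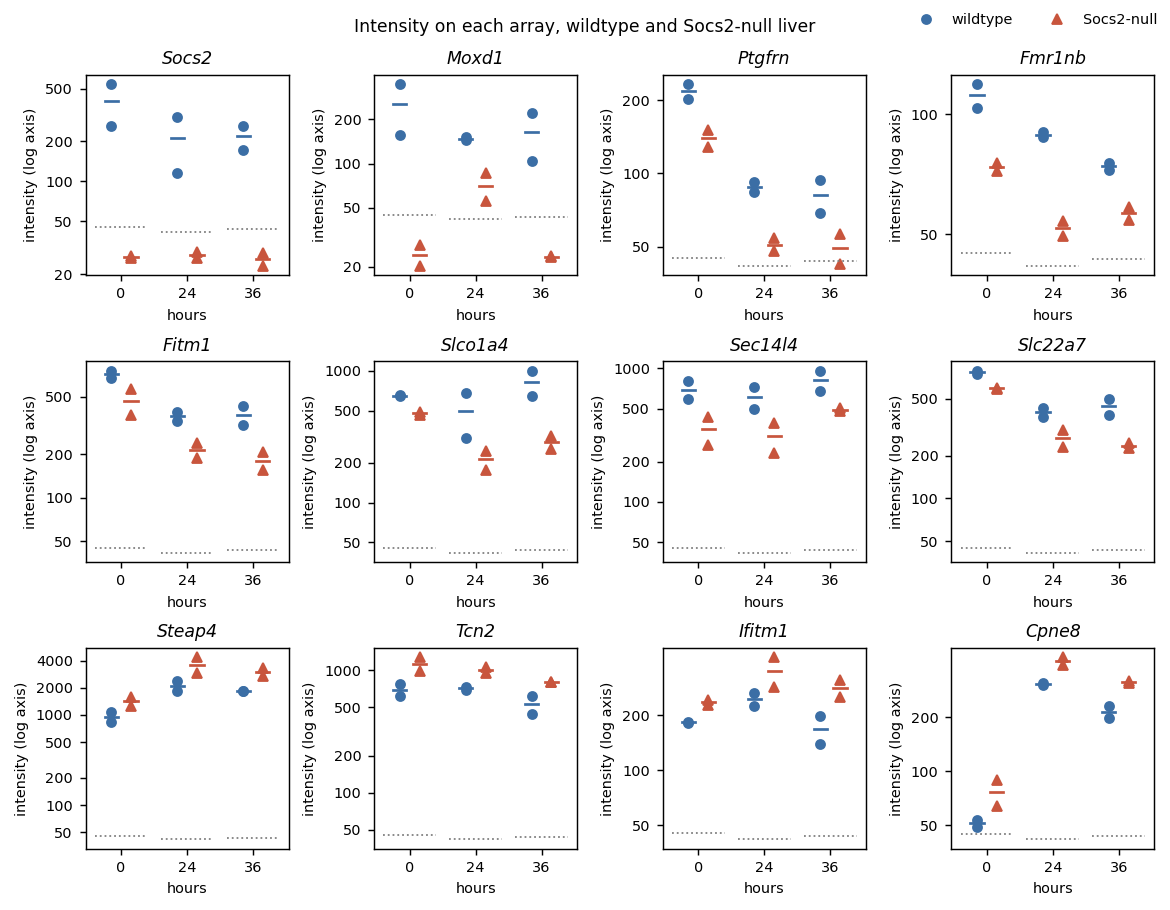
Intensity on each array (log axis) by hours after hepatectomy, for 12 genes, with wildtype arrays as circles, Socs2-null arrays as triangles, horizontal bars for the mean of 2 arrays and dotted lines for the highest background line among the 4 arrays of a time. At each time both Socs2-null arrays lie on the same side of both wildtype arrays in every panel, under them for the first 8 genes and over them for the last 4.

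Because few genes passed the test, genes are described further by overlap. At each of the 3 times both Socs2-null arrays lay under both wildtype arrays for 303 genes (1.77 %) and over both for 133 genes (0.778 %). For 18 genes the 6 Socs2-null arrays were all lower than the 6 wildtype arrays whatever the time, and for 5 genes all higher. The genes lower without overlap were mostly dim. In 5 equal bins of genes from the dimmest to the brightest they numbered 48, 91, 111, 28 and 25, and the higher ones 5, 4, 38, 38 and 48. Of the 2 sets 201 and 125 were over background on all 6 arrays of at least 1 genotype, as were 11070 of all genes. A lower gene can meet this through wildtype alone and a higher gene through Socs2-null alone, so it does not support the differences. The balance of directions depended on the scaling: of genes with the same sign at each time 65.4 % were below 0 as deposited, 52.4 % after quantile normalization and 32.4 % after centring on array medians. Centring gave 141 genes lower and 356 higher without overlap, against 303 and 133, and moved the median difference of all genes from -0.02 to 0.02. Under all 3 scalings 120 genes were lower and 100 higher without overlap, of which 88 and 93 were over background in the same sense. The genes described next were picked from among those without overlap, after their values had been seen, and not by size alone. Lad1 (-0.52), Tnfaip3 (0.53) and Pkhd1 (0.46) were also without overlap at each time and are not described. The differences of the genes described are descriptions except where a test is given.

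**Figure D2:**
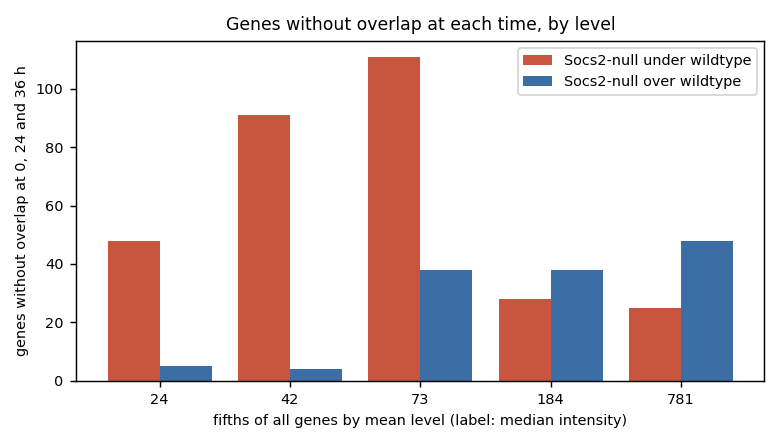
Number of genes without overlap between genotypes at 0, 24 and 36 h in 5 equal bins of all 17097 genes by mean level, labelled by the bin's median intensity, with genes lower in Socs2-null liver beside genes higher. Lower genes peak at 111 in the middle bin, and higher genes number 48 in the brightest.

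Fitm1, a membrane protein of the endoplasmic reticulum that takes part in lipid droplet formation, read 671 and 760 in wildtype and 564 and 373 in Socs2-null liver at 0 h. It read 342 and 394 against 240 and 187 at 24 h, and 318 and 432 against 206 and 156 at 36 h. The pairs did not overlap at any time, and the difference was -0.78 ± 0.12 (adjusted p = 0.0626). Slc22a7, an organic anion transporter, read 747 and 790 against 594 and 590 at 0 h, 376 and 431 against 303 and 229 at 24 h, and 501 and 385 against 244 and 225 at 36 h. Its difference was -0.37, -0.58 and -0.86 at the successive times and -0.60 ± 0.10 over them (adjusted p = 0.0626). Slco1a4, which takes up organic anions and bile acids, read 640 and 661 against 464 and 492 at 0 h, 307 and 678 against 178 and 249 at 24 h, and 1007 and 644 against 257 and 321 at 36 h. Its wildtype pair at 24 h was the most widely spread of the 6 pairs, and the difference was -0.98 ± 0.20 (adjusted p = 0.186). Sec14l4, a protein of the SEC14 lipid-transfer family, read 589 and 800 against 435 and 266 at 0 h, 494 and 730 against 391 and 231 at 24 h, and 679 and 964 against 503 and 476 at 36 h. Its difference of -0.88 ± 0.16 did not pass the test (adjusted p = 0.102).

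Other genes lower at each time without overlap had smaller differences or lower levels. Mrnip, a factor of the DNA damage response, differed by -0.73 ± 0.14 (adjusted p = 0.146). Gnai1, an inhibitory G protein alpha subunit, differed by -0.64 ± 0.13 (adjusted p = 0.186) with readings of 47.8 to 166, and its other 2 probe sets were also below 0, at -0.29 ± 0.09 and -0.24 ± 0.07. Nat8, an acetyltransferase that acts on cysteine conjugates, read 170 to 470 in Socs2-null and 207 to 618 in wildtype liver (-0.49 ± 0.10, adjusted p = 0.147). Ltbr, the lymphotoxin beta receptor, was among the brighter ones, with 617 to 1106 against 839 to 1423 (-0.41 ± 0.09, adjusted p = 0.19). Lonrf2, a RING finger protein, and Klhdc1, a kelch domain protein, differed by -0.51 ± 0.08 and -0.34 ± 0.06 (adjusted p = 0.0626 and 0.0679).

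For Csf2rb and Rrm2b, lower without overlap by their brightest probe set (-0.56 and -0.54), other probe sets disagreed and no direction is drawn. Those of Csf2rb, over background on 10 and 12 arrays, gave 0.12 and 0.23, and that of Rrm2b over background on all arrays gave 0.04. Ncam1 (-0.68) and Acta2 (-0.49) have no second probe set over background on more than 6 arrays, so these 2 values rest on a single probe set each. Acta2 marks stellate cells and smooth muscle. Among 14 markers of stellate cells and matrix 3 were lower and 1 was higher at each time. These shares of 21.4 % and 7.14 % stand beside 21.2 % and 11.2 % of all genes. The median difference of the 14 was 0.04, and after centring on array medians 3 were lower and 4 higher.

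Among the genes higher at each time without overlap, Steap4 and Tcn2 had the largest differences, and every probe set of each parted the genotypes. Steap4 encodes a metalloreductase that reduces iron and copper and is induced in liver by inflammatory cytokines. It read 1067 and 845 in wildtype against 1568 and 1262 in Socs2-null liver at 0 h, 2371 and 1818 against 2877 and 4334 at 24 h, and 1852 and 1817 against 2701 and 3340 at 36 h. The difference was 0.56, 0.76 and 0.71 at the successive times and 0.68 ± 0.11 over them (adjusted p = 0.0626), and its other probe set gave 0.75 ± 0.18. The reading of 4334 is from Socs2-null replicate 2 of 24 h, the array high in neutrophil markers, and without it the difference of Steap4 was 0.59 (adjusted p = 0.187). Tcn2 encodes transcobalamin, the carrier that delivers vitamin B12 to cells. It read 769 and 614 against 986 and 1268 at 0 h, 734 and 681 against 942 and 1050 at 24 h, and 620 and 442 against 802 and 794 at 36 h. All 6 Socs2-null arrays lay over all 6 wildtype arrays, the difference was 0.59 ± 0.10 (adjusted p = 0.0626), and the other 2 probe sets gave 0.45 ± 0.11 and 0.46 ± 0.10.

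Cpne8, a calcium-dependent phospholipid-binding copine, read 49.1 and 53.7 against 89.8 and 63.95 at 0 h, 304 and 312 against 393 and 431 at 24 h, and 232 and 197 against 317 and 309 at 36 h. The difference was 0.46 ± 0.08 (adjusted p = 0.0679), in a gene whose level was several times higher after hepatectomy in both genotypes. Ank, a membrane protein that exports pyrophosphate and citrate, differed by 0.42 ± 0.08 (adjusted p = 0.0933), with 272 to 372 in wildtype and 332 to 518 in Socs2-null liver. Gja1, the gap junction protein connexin 43, differed by 0.37 ± 0.08 (adjusted p = 0.186), and 4 of its 5 probe sets lay between 0.36 and 0.40. Fermt2, a kindlin that activates integrins, differed by 0.39 ± 0.09 (adjusted p = 0.223), and 1 of its 3 probe sets was at -0.01. Ifitm1, an interferon-induced membrane protein, differed by 0.50 ± 0.11 (adjusted p = 0.193), and by 0.44 without Socs2-null replicate 2 of 24 h, where it read 414. Its relative Ifitm2 differed by 0.24 ± 0.06 (adjusted p = 0.239).

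**Figure D3:**
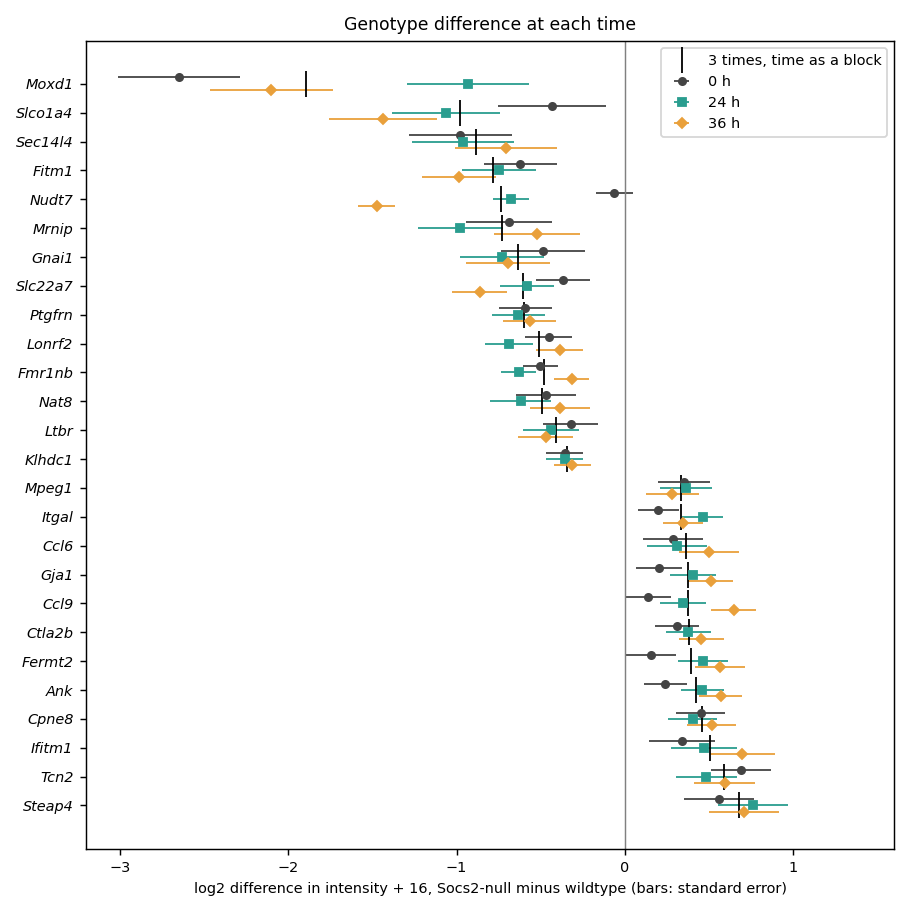
Socs2-null minus wildtype difference in log2(intensity + 16) for 26 genes without overlap at each time, with points and standard error bars for 0, 24 and 36 h and a black tick for the fit over the 3 times. Ptgfrn lies near -0.6 at every time, while Nudt7 runs from -0.06 at 0 h to -1.47 at 36 h.

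Some genes with a direction shared by the times had differences of unlike measured size. No gene passed the test of a change between times, so these are descriptions. Nudt7, a peroxisomal hydrolase that degrades coenzyme A, read 8288 and 8400 in wildtype against 7851 and 8131 in Socs2-null liver at 0 h. It read 4506 and 5050 against 2832 and 3137 at 24 h, and 4561 and 4649 against 1496 and 1812 at 36 h. The pairs did not overlap at any time on this probe set, but the difference went from -0.06 ± 0.11 at 0 h through -0.68 ± 0.11 at 24 h to -1.47 ± 0.11 at 36 h. Its other probe sets, over background on all 12 arrays, gave -0.65 ± 0.17 and -0.24 ± 0.09 over the times. Neither of them parted the genotypes at every time. The test of a change between times gave an adjusted p of 0.09, and that of the difference over the times 0.223, or 0.00179 as the average in the group-means model. Slco1a4 and Slc22a7 also had their smallest difference at 0 h and their largest at 36 h, and their tests of a change between times gave an adjusted p of 0.98 each.

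Gene lists, chosen with earlier results of these data known, are described by counts and medians beside those of all genes. Of all genes 21.2 % were lower and 11.2 % higher at each time, with a median difference of -0.02. After centring on array medians, 1831 of all 17097 genes were lower at each time and 3820 higher, against 3627 and 1917 as deposited. List counts after centring belong beside these. Of the members of these lists Socs2 alone passed the adjusted threshold. The male-biased list had 10 of 17 members lower at each time and none higher, with a median of -0.16. Beside Moxd1 and Nudt7 these were the fatty acid elongase Elovl3 (-0.73 ± 0.27), the steroid dehydrogenase Hsd3b5 (-0.70 ± 0.30), the oxysterol hydroxylase Cyp7b1 (-0.29 ± 0.12), Selenbp2 (-0.30 ± 0.12), the glutathione transferase Gstp1 (-0.10 ± 0.04), Cyp4a12a, Slco1a1 and Cyp2u1, which was over background on only 2 of 12 arrays. At 0 h the largest differences among the 10 were those of Moxd1 (-2.65) and Elovl3 (-0.34), while Hsd3b5 was at -0.01 at 0 h, -1.09 at 24 h and -1.02 at 36 h, and Selenbp2 at -0.01, -0.84 and -0.05. Gstp1, Selenbp2 and Cyp4a12a have near-identical relatives, and their probe sets may read these as well. Centring on array medians left 5 members of the list lower and 1 higher, with a median of -0.12. The female-biased list had 4 of 24 members lower and 6 higher at each time, with a median of -0.01. Of these 24, 5 were under background on all arrays, against none of the male-biased list. Its member Slc16a5, a monocarboxylate transporter, was lower without overlap at each time. It read 66.4 and 63.2 in wildtype against 51.5 and 45.6 in Socs2-null liver at 0 h, 188 and 240 against 61.6 and 174 at 24 h, and 236 and 159 against 74.6 and 145 at 36 h (-0.68 ± 0.21, adjusted p = 0.337). Cyp39a1, an oxysterol hydroxylase, was at 0.56, 1.05 and 0.01 at the successive times and 0.54 ± 0.20 over them (adjusted p = 0.389).

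No member of the growth hormone pathway other than Socs2 passed the test. Among 25 genes of the receptor and JAK-STAT pathway 3 were lower and 7 higher at each time. Jak1, a kinase of cytokine receptors, differed by 0.21 ± 0.07 (adjusted p = 0.337) and Socs6 by 0.23 ± 0.09 (adjusted p = 0.411). Socs3, the inhibitor of interleukin 6 family signalling, read 580 and 867 in wildtype against 553 and 388 in Socs2-null liver at 0 h, 529 and 551 against 225 and 458 at 24 h, and 324 and 331 against 335 and 194 at 36 h. Its groups overlapped at 36 h, and the difference was -0.55 ± 0.18 (adjusted p = 0.344). Among 10 STAT5 targets 2 were lower and 2 higher at each time. Igfbp3, which binds insulin-like growth factors in blood, was at 0.79 ± 0.21 (adjusted p = 0.283), and its groups overlapped at 24 h, where the Socs2-null arrays read 117 and 335. Igf1, the main growth hormone target of hepatocytes, read 6231 to 7363 in wildtype and 6543 to 7321 in Socs2-null liver (adjusted p = 0.997).

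In lists of bile acid and amino acid metabolism the members with the same sign at each time were all lower, and in cholesterol synthesis all higher. In the bile acid list 8 of 21 members were lower at each time and none higher (median -0.20), among them Slco1a4, Cyp7b1 and the sterol 12-alpha-hydroxylase Cyp8b1 (-0.84 ± 0.40, adjusted p = 0.501). Of the enzymes and carriers of the urea cycle and of amino acid breakdown 9 of 21 were lower and none higher (median -0.15). After centring 2 of the 21 were lower and none higher, where 1831 and 3820 of all 17097 genes were. The 9 included the mitochondrial ornithine carrier Slc25a15 (-0.43 ± 0.12, adjusted p = 0.307), the proline dehydrogenase Prodh (-0.49 ± 0.17, adjusted p = 0.371) and the urea cycle enzyme Ass1 (-0.34 ± 0.12, adjusted p = 0.384). In xenobiotic metabolism 11 of 31 were lower and 2 higher (median -0.09), and 6 and 2 after centring. In cholesterol synthesis 9 of 19 were higher and none lower (median 0.20). The list's median was near 0 at 0 h, 0.29 at 24 h and 0.55 at 36 h. Its member Sqle, the squalene epoxidase, read 964 and 879 against 845 and 1004 at 0 h, 570 and 920 against 1163 and 1532 at 24 h, and 1173 and 1007 against 1636 and 2144 at 36 h (0.55 ± 0.16, adjusted p = 0.318). Its groups overlapped at 0 h and not later.

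**Figure D4:**
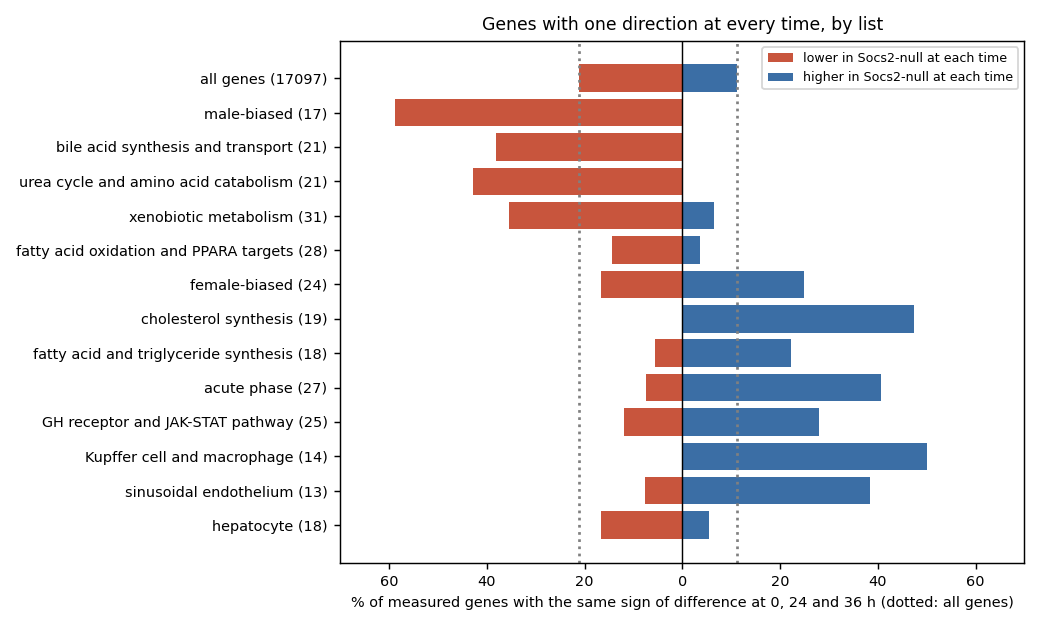
Percentage of the measured genes of each list that were lower (left) or higher (right) in Socs2-null liver at 0, 24 and 36 h alike, with the number measured in brackets and dotted lines at the 21.2 % and 11.2 % of all genes. The male-biased bar reaches 58.8 % to the left, and the Kupffer cell and macrophage bar 50 % to the right. The lists were chosen with earlier results of these data known.

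Acute phase genes mostly encode proteins that the hepatocyte secretes in inflammation. Of 27 on the list 11 were higher at each time and 2 lower (median 0.11). After centring 14 were higher and 2 lower, where 3820 and 1831 of all 17097 genes were. Without Socs2-null replicate 2 of 24 h, 9 were higher and 2 lower, beside 9.77 % and 21.4 % of all genes. Beside Steap4 they included Apcs, serum amyloid P component, at 0.26 ± 0.07 (adjusted p = 0.292), the protease inhibitor Serpina3n at 0.31 ± 0.13 (adjusted p = 0.444), Itih4 at 0.14 ± 0.05 (adjusted p = 0.388) and Lcn2, which binds bacterial siderophores, at 0.33 ± 0.14 (adjusted p = 0.441). Apcs read 1694 and 1732 against 2317 and 1737 at 0 h, 8043 and 8103 against 9505 and 9184 at 24 h, and 7537 and 6622 against 8256 and 9672 at 36 h. The pairs did not overlap, but at 0 h 1 Socs2-null array stood only just over wildtype.

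Of 14 Kupffer cell and macrophage markers 7 were higher at each time and none lower (median 0.10), with the summed level at 7678 to 8588 in wildtype and 7362 to 10811 in Socs2-null liver, and none of the 14 was under background on all arrays. Mpeg1, the pore-forming protein perforin-2, differed by 0.33 ± 0.08 (adjusted p = 0.243), C1qc, a chain of complement C1q, by 0.16 ± 0.06 (adjusted p = 0.414), and the scavenger receptor Marco by 0.35 ± 0.15 (adjusted p = 0.456). Other leukocyte genes, noticed after the values were seen, lay on both sides among the genes without overlap. Higher were the integrin Itgal (0.34 ± 0.07, adjusted p = 0.186), the phosphatase Ptprc (0.26 ± 0.07, adjusted p = 0.301) and the tetraspanin Cd53 (0.22 ± 0.07, adjusted p = 0.337). Lower, with dim readings of 36.2 to 104, were the neutrophil protease Ctsg (-0.30 ± 0.07, adjusted p = 0.233), the macrophage membrane protein Ms4a7 (-0.22 ± 0.06, adjusted p = 0.307) and Slamf9 (-0.14 ± 0.05, adjusted p = 0.389). The scavenger receptor Msr1 (0.26) and the checkpoint protein Vsir (0.27) were higher by their brightest probe set, but the other 3 probe sets of Msr1, over background on all arrays, gave 0.07, 0.07 and -0.02 and the other of Vsir gave -0.03, so no direction is drawn for them. The chemokines Ccl9 and Ccl6 differed by 0.38 ± 0.09 and 0.36 ± 0.10 (adjusted p = 0.239 and 0.269). All 6 Socs2-null arrays of Itgal, at 102 to 140, lay over all 6 wildtype arrays, at 81.3 to 99.9. Among T and NK cell markers 2 of 10 were lower and 2 higher, with 2 of the 10 under background on all arrays, and among neutrophil markers 1 of 7 was lower and 2 higher. Of 18 hepatocyte markers 3 were lower and 1 was higher (median 0.02), and of 13 sinusoidal endothelial markers 1 was lower and 5 were higher (median 0.00). Without Socs2-null replicate 2 of 24 h, 9 Kupffer cell and macrophage markers were higher and none lower, and the neutrophil list had 2 lower and none higher. The part of these cell types in the acute phase values was not tested.

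Genes near Socs2, on chromosome 10, were also examined. No gene beside Socs2 passed the adjusted threshold on this chromosome. Of 807 other genes there 12 were lower and 13 higher without overlap at each time, which is 3.1 % against 2.56 % of all genes with a place in the reference table. Of the 200 genes nearest to Socs2 in gene order 4 were lower and 3 higher (3.5 %), and of the 100 nearest 1 was lower, Anks1b, and 1 higher, Elk3. Moxd1, Gja1 and Vsir are also on chromosome 10 and outside these windows.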

How the data were processed

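Per the labels, biotinylated cRNA of adult mouse liver RNA, pooled from 3 animals an array, was hybridized to 12 Affymetrix arrays. The values analysed are the authors' deposited intensities of 45141 probe sets on a linear scale. How they were background-corrected, summarized and scaled is not given in the sources used here, and no depth exists for arrays: their number limits precision. Each gene was read from its brightest probe set on average, among the 28898 with 1 gene in the platform annotation (551 name several, 15588 none), with no filter on dim genes. Values were tested as log2(value + 16), with folds understated for dim genes. The main model was time plus genotype (8 residual degrees of freedom) in limma 3.58.1 (eBayes with trend and robust, two-sided) with statmod 1.5.0 in R 4.3.3. Differences at each time and the test of a change between times came from a group-means model (6 degrees of freedom). The model was tested on simulated data. Sequences are RefSeq's. Figures used matplotlib 3.10.9.

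The gene comparison and the 36 gene lists (538 members measured) were chosen with earlier results of these data known. Genes were named by a rule: Socs2, called genes, up to 3 members of a list with the smallest p, and others that the text marks as chosen afterwards. The other list members named were also chosen after their values were seen. Alternatives were quantile normalization, centring, pseudocounts of 1 and 64, dim filters, other probe set choices, model and variance settings, array weights, a replicate block, a hybridization control covariate and leaving out arrays or times. Testing all probe sets was added after the data were seen, as were the counts without overlap under other scalings and the list counts without Socs2-null replicate 2 of 24 h.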

Additional observations from a re-analysis of the deposited data

Results flagged for a closer look

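Akr1d1, a reductase of bile acid synthesis, stood in opposite order at 2 times. Both Socs2-null arrays were over both wildtype arrays at 0 h (1373 and 1347 against 1302 and 1293, a log2 difference of 0.0663) and under them at 36 h (419 and 327 against 514 and 663, -0.63). The test of a change between times gave an adjusted p of 0.98.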

How the results depend on the processing

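The main counts were 3 genes lower, none higher and none with a change between times. The counts lower and higher were 1 and 0 after centring on array medians. They were 16 and 3 with arrayWeights (with 1 change between times) and 5 and 2 with the hybridization control covariate. The average of the group-means contrasts gave 4 and 1 (Moxd1, Nudt7 and Tff3 pass, Ptgfrn does not). Counts were 1 and 0 without the 0 h arrays, and 1 and 0 without the 24 h arrays (with 2 changes between times). They were 0 and 0 without the 36 h arrays, and on all probe sets. Quantile normalization, pseudocounts of 1 and 64, both dim filters, the other probe set choices and plain eBayes kept the same 3 genes. The difference of Socs2 over the 3 times was -2.71 without the 36 h arrays. Leaving out each array gave 0 to 11 genes lower, 0 higher, 0 to 11 changes between times and -2.84 to -2.43 for Socs2. Centring moved the genes without overlap to 141 lower and 356 higher. Without probe sets whose names end in _s_at, _x_at or _a_at the sign turned for Ncam1 (0.13), Csf2rb (0.23) and Acta2 (0.14). The probe set then read was over background on 6 arrays for Ncam1, 12 for Csf2rb and 1 for Acta2. The cause of these shifts was not tested. With a replicate block 1 gene was lower and 0 higher; same-numbered arrays of the genotypes deviated from their group means with correlations of -0.02, -0.27 and -0.19 at the 3 times, so the numbers were not taken to pair the pools. With 2 pools a group and readings near background for many genes, small differences are not resolved.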

Other observations

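List counts here, lower or higher in Socs2-null liver at each time, belong beside the 21.2 % and 11.2 % of all genes. Of 34 genes of DNA replication and mitosis, which hepatectomy induces, 8 were lower (23.5 %) and 5 higher (14.7 %). These shares were near those of all genes, and the list's median difference was -0.05. After centring on array medians 2 were lower and 7 higher, where 1831 and 3820 of all 17097 genes were. Interferon-stimulated and antigen presentation genes had 2 of 21 lower and 5 higher at each time (median 0.02). Heat shock genes had 3 of 8 lower and none higher (median -0.16), with medians of -0.30 at 0 h, -0.27 at 24 h and 0.11 at 36 h. Among 13 core clock genes 2 were lower and 1 was higher at each time. Fetub, a liver-secreted protease inhibitor, was higher without overlap at each time, by 0.22 ± 0.07 (limma, adjusted p = 0.311). The cholangiocyte and mucosal list had 2 of 13 lower and 2 higher. Its member Tff3, a trefoil peptide, differed by 0.50 at 0 h, 1.22 at 24 h and 0.08 at 36 h. Over the times Tff3 differed by 0.60 ± 0.15 (limma, adjusted p = 0.242). As the average of the differences in the group-means model, it was the 1 gene called higher.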
